A study of Homo sapiens with 10 samples.

Results

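The 9 genes described here, HSD17B2, PID1, STAP1, PIEZO2, SLCO5A1, CD44, DCT, TOX3 and DSP, were picked because their RNA was nearly lost in D425 cells that carried a hairpin against CRX. They are 9 of the 57820 gene identifiers counted, and all 9 passed the filter on low counts, which left 16006 genes to test. D425 and HD-MB03 are established lines of Group 3 medulloblastoma, a childhood tumour of the cerebellum. The D425 libraries were 3 of cells labelled shCRX, 1 of cells with the empty Tet-pLKO-puro vector and 2 of parental cells. The HD-MB03 libraries were 2 labelled shCRX, 1 of the empty vector and 1 of parental cells. The labels give doxycycline at 4 µg/ml for 72 h, which switches on the hairpin, and make no exception for vector or parental cells. The transduced cells were polyclonal populations. The study used a pair of hairpins, but no label ties a library to either, and all shCRX libraries of a line therefore form 1 group. Vector and parental libraries of a line together formed its controls. Nothing in the labels states that replicates were grown separately, and a p-value here reflects only how these libraries vary, which may be technical.

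The 9 genes were chosen by their counts in D425 shCRX and control libraries, so the values in D425 shCRX and control libraries are a description and no test is given for them. Tests of the 9 genes are given in HD-MB03 only, whose libraries played no part in the choice. Levels are given as CPM (counts scaled to a fixed number of reads in genes), corrected by the effective library size.

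CRX, a homeobox protein active in photoreceptors and the pineal gland, switches on their genes by binding short DNA elements with the core TAATCC. Group 3 medulloblastoma is known for expressing part of the photoreceptor program outside the eye. The 9 genes come from unrelated pathways. HSD17B2 and DCT are enzymes, SLCO5A1 is a membrane transporter, PIEZO2 is an ion channel, PID1 and STAP1 are signalling adaptors, CD44 and DSP act in adhesion, and TOX3 is a nuclear DNA-binding protein. None is a classical photoreceptor gene.

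CRX itself was measured first as a check on the labels. It was present at 20.3, 20.9 and 25.3 CPM in D425 shCRX replicates 1 to 3, against 47.5 and 29.7 CPM in parental replicates 1 and 2 and 64.9 CPM in the vector library. The mean was 22.2 ± 2.74 CPM in D425 shCRX cells and 47.4 ± 17.6 CPM in D425 controls (SD, n = 3 each), so 46.8% was left, with a log2 fold change of -1.10 ± 0.26 (SE) and an adjusted p of 0.0436 by edgeR's quasi-likelihood test. That call held in 4 of 17 alternatives, with adjusted p between 0.000418 and 0.243, and was lost on leaving out any 1 of the 10 libraries other than D425 parental replicate 2; the log2 fold change stayed between -1.55 and -0.81. In HD-MB03, CRX went against the label. It was at 27.7 and 23.5 CPM in the libraries labelled shCRX, against 12.5 and 12.3 CPM in the parental and vector libraries, a log2 fold change of 1.04 ± 0.36 that did not pass (adjusted p = 0.174, edgeR). Directions in HD-MB03 below are therefore those of the libraries labelled shCRX, not of lower CRX. Whether the HD-MB03 labels were exchanged was not tested, and if they were, each HD-MB03 direction given here would be reversed.

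Depth was 3.64 to 9.53 M counted reads in D425 shCRX libraries and 11.36 to 18.06 M in D425 controls, 14.55 and 14.26 M in HD-MB03 libraries labelled shCRX, and 2.08 and 1.96 M in HD-MB03 controls. A count of 3, taken as the floor, was 0.315 to 0.824 CPM of unscaled reads in D425 shCRX libraries and 1.44 and 1.53 CPM in HD-MB03 controls. The share of unaligned reads was 30.9% in the HD-MB03 parental library, 26.4% in the HD-MB03 vector library and 4.54% to 7.99% elsewhere. The numbers in the library names ran between 20 and 62 for D425 shCRX and HD-MB03 controls, and from 110 upwards for D425 controls and HD-MB03 libraries labelled shCRX, so within a line this numbering and the arm cannot be told apart. The summed level of 13 Group 3 genes was 3190 to 4880 CPM in D425 shCRX libraries and 5980 to 6620 CPM in D425 controls, without overlap. MYC and OTX2 made up most of this sum, and neither passed (adjusted p = 0.209 and 0.229, edgeR). MYC had a mean of 1620 CPM in D425 shCRX cells and 2580 CPM in D425 controls. NRL was nearly level, at 35.9 and 37.4 CPM, and TRIM58 was higher in shCRX cells, at 5.59 and 3.80 CPM. Of the 9 Group 3 genes tested in D425, 2 passed as lower, GABRA5 (-1.85, adjusted p = 0.00545, edgeR) and IMPG2 (-0.92, adjusted p = 0.0387, edgeR), with a median log2 fold change of -0.69. GABRA5 passed in 16 of 17 alternatives (adjusted p 1.53e-11 to 0.122), IMPG2 in 7 (0.000417 to 0.282), lost without parental replicate 1, shCRX replicate 1 or 2 or the vector library of D425 or either HD-MB03 control. OTX2 was abundant in both, at a mean of 1850 CPM in D425 shCRX cells and 2480 CPM in D425 controls, and the part of the fall of the Group 3 genes in the results below was not tested. No pair of libraries held identical values.

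The upstream windows of 3 of the 9 genes are shown because CRX has a known core element. That the 9 genes moved together in D425 follows from how they were picked. RefSeq windows were found for 5 of the 9, with 6 start sites in all, on build GRCh38.p14, and each holds the 250 bases before the start. They were searched on both strands for TAATCC, the CRX core, for TAATTA, a general homeobox core, and for CATGTG, an E-box of the kind bound by MITF in pigment cells. Matches are in capitals.
STAP1, chr4:67558477-67558726, plus strand: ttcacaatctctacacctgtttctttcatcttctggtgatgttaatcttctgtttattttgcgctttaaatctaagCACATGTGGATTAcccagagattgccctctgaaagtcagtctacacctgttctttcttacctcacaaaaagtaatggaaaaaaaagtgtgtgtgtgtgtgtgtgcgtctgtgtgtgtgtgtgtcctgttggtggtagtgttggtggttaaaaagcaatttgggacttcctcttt
DCT, chr13:94479683-94479932, minus strand: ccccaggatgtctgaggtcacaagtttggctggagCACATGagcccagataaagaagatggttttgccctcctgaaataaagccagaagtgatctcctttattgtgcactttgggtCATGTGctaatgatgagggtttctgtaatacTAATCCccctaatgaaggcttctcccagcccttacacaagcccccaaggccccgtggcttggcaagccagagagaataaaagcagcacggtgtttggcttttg
DSP, chr6:7541421-7541670, plus strand: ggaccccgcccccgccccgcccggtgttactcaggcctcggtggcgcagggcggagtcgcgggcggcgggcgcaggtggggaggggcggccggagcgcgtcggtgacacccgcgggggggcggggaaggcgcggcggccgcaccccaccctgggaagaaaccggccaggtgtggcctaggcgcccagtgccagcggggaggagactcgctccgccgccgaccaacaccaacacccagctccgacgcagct
In STAP1 the reverse of TAATCC lay 167 bases before the start and next to it CATGTG matched both strands in overlapping letters, 172 and 174 bases before the start. In the inner of the 2 DCT windows TAATCC lay 103 bases before the start, with CATGTG at 134 bases and its reverse at 215. The DSP window, 78.0% G and C, held none of the 3 motifs, and neither did the windows of CD44 and PIEZO2 or the outer DCT window. TAATCC was in 2 of the 6 windows and in 5.62% of 35116 windows of that length genome-wide, CATGTG in 2 of 6 and 9.42%, and TAATTA in 0 of 6 and 4.35%. A match says only that these letters are present.

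Among the enzymes and transporters, HSD17B2 was lost furthest of the 7 genes with any read left. HSD17B2 oxidises estradiol to estrone and testosterone to androstenedione. It had 0.277, 0.207 and 0.256 CPM in D425 shCRX replicates 1 to 3, against 36.9 and 27.3 CPM in parental replicates 1 and 2 and 27.8 CPM in the vector library. The 3 shCRX libraries held 5 reads between them and the 3 controls 1303, a 124-fold lower pooled level, and no shCRX library came near a control. On mean CPM, 0.804% was left.

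DCT, dopachrome tautomerase, converts dopachrome during melanin synthesis, and it was by far the most abundant of the 9 genes. It had 32.4, 45.9 and 61.1 CPM in D425 shCRX replicates 1 to 3, against 498 and 194 CPM in parental replicates 1 and 2 and 528 CPM in the vector library. The mean was 46.5 ± 14.4 CPM in D425 shCRX cells and 406 ± 184 CPM in D425 controls (SD, n = 3 each). The fall was clear of the spread among the controls, whose lowest library was parental replicate 2, yet 11.4% of the level was left. "Nearly lost" therefore does not describe DCT well. Its mean in shCRX libraries, 46.5 CPM, was above the control mean of each of the 8 other genes, of which HSD17B2 was highest with 30.7 CPM. Per kilobase of exon DCT had 6.16 CPM in shCRX libraries, and the highest control level of the 8 was 4.92 CPM, for STAP1. Exon length here is the union of all annotated exons of a gene. The transcripts expressed may be shorter, so levels per kilobase depend on that choice.

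SLCO5A1 belongs to the organic anion transporter family. It had 0 reads in all 3 D425 shCRX libraries, against 4.81 and 6.54 CPM in parental replicates 1 and 2 and 4.82 CPM in the vector library, 220 reads in all. With 3 counts over the group as the floor, the level was at least 34.8-fold lower and at most 2.87% was left; the two-sided 95% counting interval of the ratio reached a little higher, 0.0356. PIEZO2, a mechanically gated cation channel of touch and of body position sense, had 0.554, 0 and 0.256 CPM in D425 shCRX replicates 1 to 3, against 6.61 and 5.97 CPM in parental replicates 1 and 2 and 7.09 CPM in the vector library. Its shCRX libraries held 7 reads and its controls 270, and its control values spanned a narrow range.

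PID1 and STAP1 are adaptors without catalytic activity of their own. PID1 carries a phosphotyrosine-interaction domain and binds the lipoprotein receptor LRP1. It had 0.277, 0.207 and 0.256 CPM in D425 shCRX replicates 1 to 3, against 10.1 and 4.76 CPM in parental replicates 1 and 2 and 22.7 CPM in the vector library. The controls differed more among themselves than for most of the 9 genes, with the vector library highest, and the pooled level was 46.4-fold lower in shCRX cells, or 30.9-fold lower without the vector library. STAP1, an adaptor first described downstream of the kinase TEC in B cells, had 0.461, 0 and 0.512 CPM in D425 shCRX replicates 1 to 3, against 9.41 and 7.10 CPM in parental replicates 1 and 2 and 7.91 CPM in the vector library. Its pooled level was 23.3-fold lower in shCRX cells, with 7 reads against 343, and its 3 control libraries lay close together.

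CD44, the main receptor for hyaluronan, was hardly expressed in D425 at all. It had 0 reads in all 3 shCRX libraries, against 1.23 and 0.565 CPM in parental replicates 1 and 2 and 0.545 CPM in the vector library, 35 reads in all. The level was at least 5.54-fold lower in D425 shCRX cells, but a remaining share of up to 18.1% could not be detected at this depth. Without parental replicate 1, which held most of the reads, these limits were 3.63-fold and 27.6%, and the two-sided 95% counting interval of the ratio with all controls reached 0.234. DSP, desmoplakin, ties the plaque of desmosomes to intermediate filaments. It had 0.831, 0 and 0.256 CPM in D425 shCRX replicates 1 to 3, against 7.95 and 6.37 CPM in parental replicates 1 and 2 and 6.36 CPM in the vector library. Of its 10 reads in shCRX libraries, 9 were in replicate 1.

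TOX3, a nuclear protein with an HMG box, had 2.77, 0.827 and 0.767 CPM in D425 shCRX replicates 1 to 3, against 13.0 and 10.2 CPM in parental replicates 1 and 2 and 22.6 CPM in the vector library. Replicate 1 stood above the other shCRX libraries with 30 of 37 reads, and 9.52% of the mean level was left. Without that replicate the share left was 5.22% for TOX3, 1.85% for DSP against 5.25% with it, and 1.95% for PIEZO2 against 4.12% with it. For DCT the share was 13.2% without it. In bulk RNA, fewer cells that express a gene and less RNA per cell cannot be told apart.

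**Figure D1:**
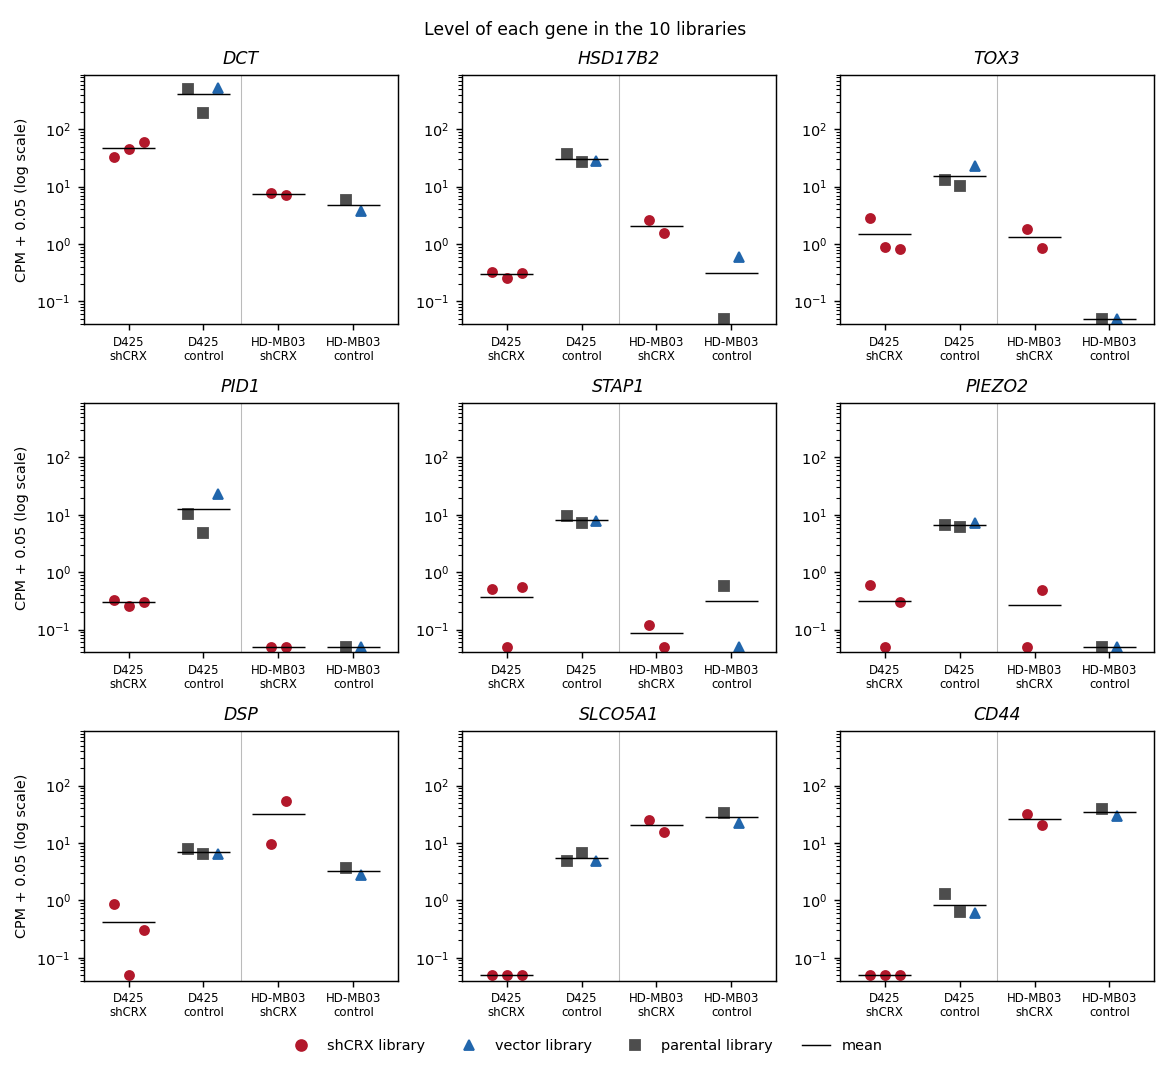
Level of each of the 9 genes in every library, as CPM plus 0.05 on a log axis, with shCRX libraries as red circles, vector libraries as blue triangles, parental libraries as grey squares and a bar at each group's mean. In D425 every shCRX library lies below every control for all 9 genes. In HD-MB03 SLCO5A1 and CD44 are well expressed, DSP lies between 2.68 and 54.2 CPM, and PID1 is at 0.

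Across the 9 genes, every D425 shCRX library lay below every D425 control in 9 of 9, the pattern they were picked for; 11.5% of all tested genes had it. On mean CPM, 6 of 9 kept 5% or less, counting SLCO5A1 and CD44 at 0, and 8 of 9 kept 10% or less. Of 13696 tested genes with at least 1 CPM in D425 controls, 18 kept 5% or less and 54 kept 10% or less. In the opposite direction, 54 of 13987 genes with at least 1 CPM in shCRX libraries had control levels at 10% or less of the shCRX level. Loss of this size was thus as frequent as gain of this size in D425. Ranked by the share left among protein-coding genes at 1 CPM or more in controls with no overlap, SLCO5A1 was 2nd, HSD17B2 4th, PID1 5th, STAP1 8th, PIEZO2 10th, DSP 14th, TOX3 31st and DCT 45th, and CD44 was below the level ranked.

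The 5 other genes with the lowest shares were EPHA3, PDC, IGFBP2, SIM1 and GNAQ, so the 9 are not the 9 with the deepest loss. EPHA3, an ephrin receptor, had 0 reads in D425 shCRX libraries against 349 in controls. PDC, phosducin, a photoreceptor protein that binds G protein subunits, had a mean of 0.417 CPM in D425 shCRX cells and 70.9 CPM in D425 controls, and kept 0.587%. IGFBP2, which binds insulin-like growth factors, kept 1.99%.

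**Figure D2:**
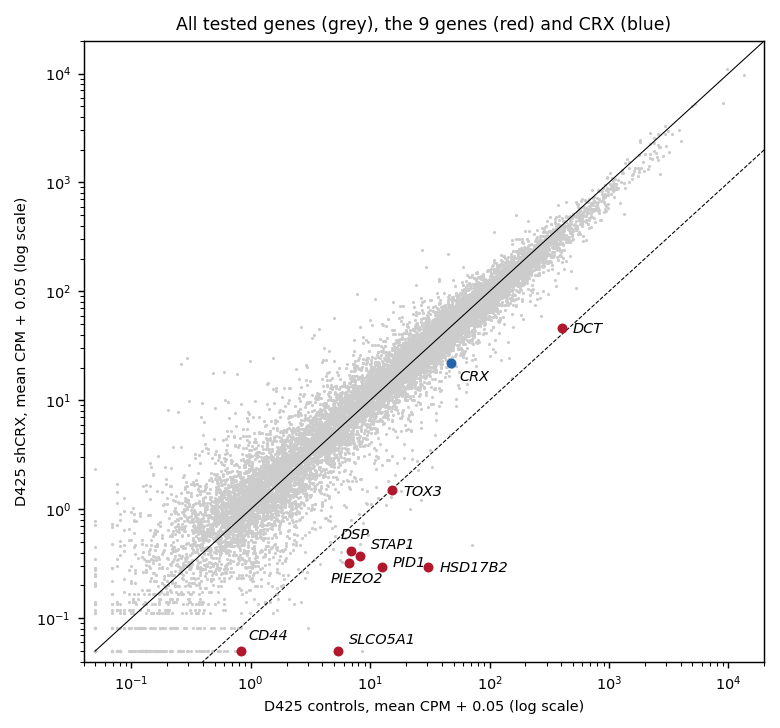
Mean CPM plus 0.05 of every tested gene in D425 shCRX libraries (vertical) and D425 controls (horizontal), both on log axes, with the 9 genes in red and CRX in blue. The solid line marks equal levels and the dashed line 10% left; DCT lies beside the dashed line at 46.5 and 406 CPM, and the other 8 lie below it with control means of 0.781 to 30.7 CPM.

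**Figure D3:**
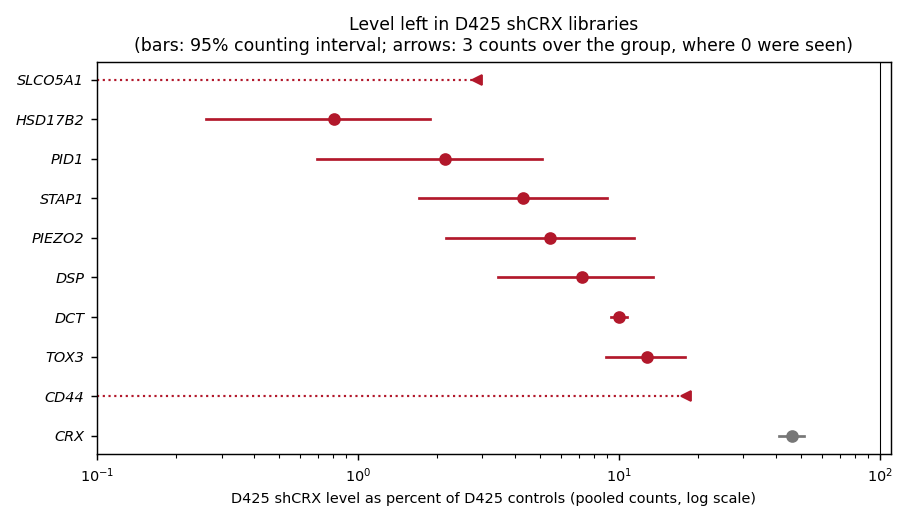
Level in D425 shCRX libraries as percent of D425 controls from pooled counts, on a log axis, with points for the pooled share, bars for its 95% counting interval and arrows at 3 counts over the group where 0 were seen. HSD17B2 kept least among genes with reads left, the arrows of SLCO5A1 and CD44 stand at 2.87% and 18.1%, and CRX itself kept far more than any of the 9.

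The counting intervals of the pooled share, exact binomial at 95%, cover counting error only. As ratios, they ran 0.00262 to 0.0189 for HSD17B2, 0.00696 to 0.0506 for PID1, and 0.0344 to 0.135 for DSP. The interval of DCT, 0.0931 to 0.107, was the narrowest, with 812 reads in shCRX libraries and 17099 in controls. The interval of HSD17B2 lay below those of DSP and DCT, which overlapped. The same counts chose the genes, so this is a description of these reads only. Pooling also hides that 9 of the 10 DSP reads in shCRX libraries were in replicate 1.

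Among the D425 controls, levels per kilobase of exon ran in the order DCT, STAP1, PID1, HSD17B2, TOX3, DSP, SLCO5A1, PIEZO2 and CD44. This order rests on the union of all annotated exons as the length, 9550 bases for HSD17B2. It may differ for the transcripts expressed. DCT stood apart at a mean of 53.9 CPM per kilobase. STAP1, PID1, HSD17B2 and TOX3 lay between 3.04 and 4.92 CPM per kilobase, and the libraries of PID1 overlapped those of the other 3. DSP, SLCO5A1 and PIEZO2 lay between 0.443 and 0.683 CPM per kilobase and CD44 at 0.0780.

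Over the 3 D425 controls, PID1, PIEZO2, DCT and TOX3 had the same order as CRX, highest in the vector library and lowest in parental replicate 2. That is 4 of 9, and 22.2% of all tested genes had this order. Between the D425 vector library and the parental libraries, 0 genes passed, 0.0% of those tested (edgeR's quasi-likelihood test in a fit of 6 groups, where the single vector library is assumed to vary like the other groups), with 516 genes, 3.22%, at an unadjusted p under 0.05 and 0 with DESeq2. The control counts also entered the choice of the 9 genes, so their differences here are given with no test. The largest was that of PID1, with a log2 fold change of 1.61 ± 0.55 (SE), and DCT had one of 0.61 ± 0.49. CRX was higher in the vector library too, with a log2 fold change of 0.75 ± 0.33 (adjusted p = 1.0, edgeR).

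Within the D425 shCRX group, replicate 1 was the highest library for 5 of 9 genes, HSD17B2, PID1, PIEZO2, TOX3 and DSP, and for 36.1% of all tested genes. HSD17B2 and PID1 each had 3 reads in replicate 1 and 1 read in replicates 2 and 3 each. These counts are at or under the floor, so the order of the replicates is not informative for HSD17B2 and PID1. Replicate 1 was also the deepest of the 3 with 9.53 M reads, and its CRX level was the lowest, at 20.3 CPM. The part of depth or hairpin in this was not tested.

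In HD-MB03 the 9 genes differed in level. SLCO5A1, CD44, DSP and DCT were expressed, and HSD17B2 and TOX3 were low and seen mainly in the libraries labelled shCRX. PID1 and STAP1 were under the floor of 3 counts, and PIEZO2 was above it in 1 library only. Of the 6 that could be compared, 0 passed edgeR's quasi-likelihood test and 1 passed with DESeq2, DSP, while of all tested genes 1.51% passed with edgeR, 0.262% higher and 1.24% lower, and 5.04% passed with DESeq2. At an unadjusted p under 0.05 there were 3, HSD17B2, TOX3 and DSP, all higher in the libraries labelled shCRX, against 2747 tested genes, 17.2%. An exact permutation test of 2 against 2 libraries cannot go below p = 0.333, so single genes were judged by the fit across all genes only.

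SLCO5A1 and CD44, at 0 reads in D425 shCRX cells, were more abundant in HD-MB03 than in any D425 library. SLCO5A1 had 25.2 and 15.8 CPM in the libraries labelled shCRX, against 33.3 CPM in the parental and 22.5 CPM in the vector library. The groups overlapped, and the log2 fold change of -0.45 ± 0.38 (interval -1.28 to 0.39, adjusted p = 0.586, edgeR) did not pass. CD44 had 31.4 and 20.9 CPM in the libraries labelled shCRX, against 39.0 CPM in the parental and 30.0 CPM in the vector library. Its groups overlapped as well, with a log2 fold change of -0.40 ± 0.40 (interval -1.28 to 0.48, adjusted p = 0.648, edgeR).

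DSP was higher in both libraries labelled shCRX, but unequally. It had 9.72 and 54.2 CPM in replicates 1 and 2, against 3.64 CPM in the parental and 2.68 CPM in the vector library. The controls held 12 reads in all, and the pooled level was 10.1 times as high in the libraries labelled shCRX (exact counting interval 5.74 to 19.6). The log2 fold change of 3.33 ± 0.84 (interval 1.5 to 5.16) had an unadjusted p of 0.00186 and an adjusted p of 0.0788 by edgeR's quasi-likelihood test, so it did not pass. It passed with DESeq2 (adjusted p = 0.0031), without the filter on low counts (adjusted p = 8.82e-08) and without replicate 1 of the libraries labelled shCRX (4.10, adjusted p = 0.0141). Without replicate 2 the log2 fold change was 1.62 (adjusted p = 0.36), and over all 16 alternatives the adjusted p ran between 8.82e-08 and 0.425.

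HSD17B2 had 2.57 and 1.5 CPM in the HD-MB03 libraries labelled shCRX, against 0 in the parental and 0.536 CPM, a single read, in the vector library. The pooled ratio was 7.72 with an exact counting interval of 1.33 to 310.0, and the adjusted p was 0.135 (edgeR). TOX3 had 1.79 and 0.788 CPM in the libraries labelled shCRX and 0 reads in both controls, at least 1.63-fold higher against a floor of 3 counts over the controls (adjusted p = 0.233, edgeR). Every library labelled shCRX lay above every control for HSD17B2, TOX3, DCT and DSP, and for 30.5% of all tested genes, and both control libraries were shallow. These 4 of 9 lay fully below the controls in D425 and fully above them in HD-MB03, a pattern of 4.21% of all tested genes and of 36.7% of the genes fully below in D425.

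DCT had 7.58 and 7.02 CPM in the HD-MB03 libraries labelled shCRX, against 5.73 CPM in the parental and 3.75 CPM in the vector library. This was far under its level in either D425 group, and the log2 fold change of 0.62 ± 0.61 (interval -0.71 to 1.95, adjusted p = 0.645, edgeR) did not pass. PID1 had 0 reads in all 4 HD-MB03 libraries, which allows up to 0.107 CPM over the libraries labelled shCRX and 0.792 CPM over the controls. STAP1 had 1 read in each group, and PIEZO2 had 6 reads in replicate 2 of the libraries labelled shCRX and 0 elsewhere. The median log2 fold change of all tested genes was 0.02 in D425 and 0.10 in HD-MB03.

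Per kilobase of exon, the HD-MB03 libraries labelled shCRX had the order DSP, CD44, SLCO5A1, DCT, TOX3 and HSD17B2, with means of 3.17, 2.61, 2.05, 0.967, 0.256 and 0.213 CPM per kilobase. This order too depends on the union of all annotated exons as the length. DSP had an SD about as large as its mean, so its place among the first 3 is not clear of its spread. CD44 and SLCO5A1 have nearly equal exon length. CD44 was the higher in both libraries, at 31.4 against 25.2 CPM in replicate 1 and 20.9 against 15.8 CPM in replicate 2. In the HD-MB03 controls CD44 led with 3.45 CPM per kilobase, then SLCO5A1 with 2.79, DCT with 0.628 and DSP with 0.313.

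The other genes of each pathway mostly did not pass in D425 (edgeR, adjusted p under 0.05 over all tested genes; 2.97% of all tested genes passed, 1.61% higher and 1.37% lower). Of 9 further 17-beta hydroxysteroid dehydrogenases tested, 0 passed in D425, with a median log2 fold change of 0.03, and in HD-MB03 HSD17B10 alone was lower (-1.25, adjusted p = 0.0407, edgeR), with 66.3 ± 15.1 CPM in the libraries labelled shCRX and 157 ± 24.3 CPM in controls; it passed in 7 of 16 alternatives (adjusted p 0.000648 to 0.348) and not without any 1 of the 4 HD-MB03 libraries, D425 parental replicate 1, D425 shCRX replicate 3 or the D425 vector library. HSD17B4, a peroxisomal member, had 99.7 ± 2.24 CPM in D425 shCRX cells and 114 ± 11.4 CPM in D425 controls. Of 9 further SLCO genes 2 could be tested, SLCO4A1 and SLCO1B1, and 0 passed in either line.

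No other gene of pigment cells that could be tested passed along with DCT's lower level. Of 16 melanin and melanocyte genes 7 were tested and 0 passed in either line. MITF, the transcription factor of melanocytes, had 4.36 ± 1.73 CPM in D425 shCRX cells and 3.92 ± 0.109 CPM in D425 controls, and OCA2, a melanosome transporter, 17.2 ± 2.59 CPM in shCRX cells and 16.0 ± 0.589 CPM in controls (SD, n = 3 each). TYR, tyrosinase, the first enzyme of melanin synthesis, was near 0 and not tested, with 3 reads in D425 shCRX libraries, all in replicate 1, and 27 in controls, 22 of them in the vector library. The summed level of the 16 genes was 37.8 to 45.0 CPM in D425 shCRX libraries and 31.6 to 34.1 CPM in D425 controls.

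For STAP1, 6 of 15 genes of B cell receptor signalling were tested and 0 passed in either line. The B cell markers MS4A1, IGLL1 and VPREB1 were at 0 reads in every group, while LYN, a kinase of B cell and other cells, had 40.4 ± 7.78 CPM in D425 shCRX cells and 36.5 ± 9.60 CPM in D425 controls. TEC had 4.54 ± 0.725 CPM in D425 shCRX cells and 3.42 ± 0.921 CPM in D425 controls. For PID1, 2 of 15 LRP1 and insulin receptor adaptor genes were lower in D425 and 0 higher. They were IRS1, a main substrate of the insulin receptor, with 34.3 ± 8.01 CPM in shCRX cells and 81.3 ± 6.62 CPM in controls (-1.23, adjusted p = 0.00864, edgeR), and INSR, the receptor itself, with 56.6 ± 12 CPM in shCRX cells and 123 ± 34.6 CPM in controls (-1.11, adjusted p = 0.0452, edgeR). IRS1 passed in 15 of 17 alternatives, all 10 single-library omissions among them (adjusted p 1.71e-06 to 0.111). INSR passed in 7 of 17 (adjusted p 2.07e-05 to 0.226) and not without D425 parental replicate 1, shCRX replicate 2 or 3, the vector library or either HD-MB03 library labelled shCRX. The median of the 15 was 0.25, and LRP1 did not pass.

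PIEZO1, the other PIEZO channel, was far more abundant than PIEZO2, with 276 ± 40.5 CPM in D425 shCRX cells and 189 ± 25.8 CPM in D425 controls (0.55, adjusted p = 0.143, edgeR). Of 9 further mechanically gated channels tested, PIEZO1 included, 0 passed in either line. Of 5 TOX family and HMG-box genes, 0 passed in either line, and TOX4 had 57.2 ± 20.5 CPM in D425 shCRX cells and 61.9 ± 5.2 CPM in D425 controls. Of 14 hyaluronan and CD44 partner genes, 0 passed in D425, where EZR, a linker of CD44 to actin, had 361 ± 70.1 CPM in shCRX cells and 362 ± 24.5 CPM in controls. In HD-MB03, NF2, which competes with ezrin for CD44, was lower in the libraries labelled shCRX (-1.21, adjusted p = 0.0497, edgeR), with 55.1 ± 4.83 CPM there and 127 ± 59.7 CPM in controls. NF2 passed in 7 of 16 alternatives (adjusted p 0.00138 to 0.483), and not without D425 parental replicate 1 or 2, D425 shCRX replicate 3, the D425 vector library, the HD-MB03 parental library or either library labelled shCRX.

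Among 10 further desmosome genes tested, PKP1 alone was lower in D425 and 0 were higher, with a median log2 fold change of -0.07. PKP1, plakophilin 1, binds desmoplakin and had 1.57, 0 and 2.05 CPM in D425 shCRX replicates 1 to 3, against 14.1 and 6.94 CPM in parental replicates 1 and 2 and 13.8 CPM in the vector library (-3.23 ± 0.68, adjusted p = 0.0265, edgeR). The groups did not overlap. The call held in 10 of 17 alternatives (adjusted p 1.03e-09 to 0.129) and was lost without D425 parental replicate 1, shCRX replicate 1 or 3, or the vector library. PKP2, a related plakophilin, had 35.1 ± 8.94 CPM in D425 shCRX cells and 35.5 ± 9.57 CPM in D425 controls. DSG2, a desmosomal cadherin, had 12 reads or fewer in each D425 library and 101 to 152 CPM in every HD-MB03 library. In the D425 controls, where DSP averaged 6.90 CPM, DSG2 averaged 0.409 CPM and DSC2 0.0456 CPM.

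In HD-MB03, 0 of the 10 desmosome genes passed, and the high DSP of replicate 2 of the libraries labelled shCRX came with other genes in that library. DSC3, a desmosomal cadherin, had 21.1 CPM there and 0 reads in the other 9 libraries. DSC2 had 14.8 CPM there and 0.214 CPM in replicate 1, against 0.520 CPM in the parental and 1.61 CPM in the vector library. The epithelial keratin KRT8 had 22.1 CPM there and 0.0715 CPM in replicate 1, and CDH1, the epithelial cadherin, 2.86 CPM there and 0.0715 CPM in replicate 1.

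The summed level of 10 epithelial markers was 0.357 to 31.2 CPM in the HD-MB03 libraries labelled shCRX and 0.520 to 1.61 CPM in HD-MB03 controls, with KRT5, KRT14, KRT19 and GRHL2 at 0 reads in the libraries labelled shCRX. Their part in the DSP result was not tested. In D425 the same sum was 9.23 to 15.1 CPM in shCRX libraries and 2.86 to 10.5 CPM in controls, with overlap. It came mostly from KRT8, at 3.97 CPM in shCRX cells and 2.64 CPM in controls, and KRT18, at 5.33 and 1.60 CPM. ESRP1, KRT19 and GRHL2 also had higher means in shCRX cells, while EPCAM, CDH1, KRT5 and CLDN4 had lower ones. Of the 3 epithelial markers tested in D425, 0 passed. The summed level of 10 fibroblast markers, a cell type that can be rich in CD44, was 52.1 to 85.8 CPM in D425 shCRX libraries and 26.1 to 38.0 CPM in D425 controls. PDGFRB carried most of it, with 54.1 CPM in shCRX cells and 23.7 CPM in controls (1.2, adjusted p = 0.035, edgeR; called in 7 of 17 alternatives, 0.000829 to 0.376, and not without either parental library, shCRX replicate 1 or 3, the vector library or either HD-MB03 control). DCN and COL1A2 had log2 fold changes of -1.62 and -1.27 and did not pass. The summed level of 8 blood cell markers was 0.414 to 2.81 CPM in D425 shCRX libraries and 1.05 to 11.4 CPM in D425 controls, the same direction as the 9 genes. It came mostly from PTPRC, which had 0.554, 0 and 1.79 CPM in shCRX replicates 1 to 3, against 1.57 and 0.565 CPM in parental replicates 1 and 2 and 10.6 CPM in the vector library (-2.55 ± 1.2, adjusted p = 0.32, edgeR), while CD3E, LYZ and HBB were at 0 reads in both groups. The sum of 8 glial markers was 12.4 to 18.0 CPM in D425 shCRX libraries and 16.0 to 20.6 CPM in D425 controls, mostly OLIG2, with 14.2 CPM in shCRX cells and 16.6 CPM in controls, and AQP4, S100B and OLIG1 were at 0 reads in both. The part of any of these markers in the loss of the 9 genes was not tested.

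**Figure D4:**
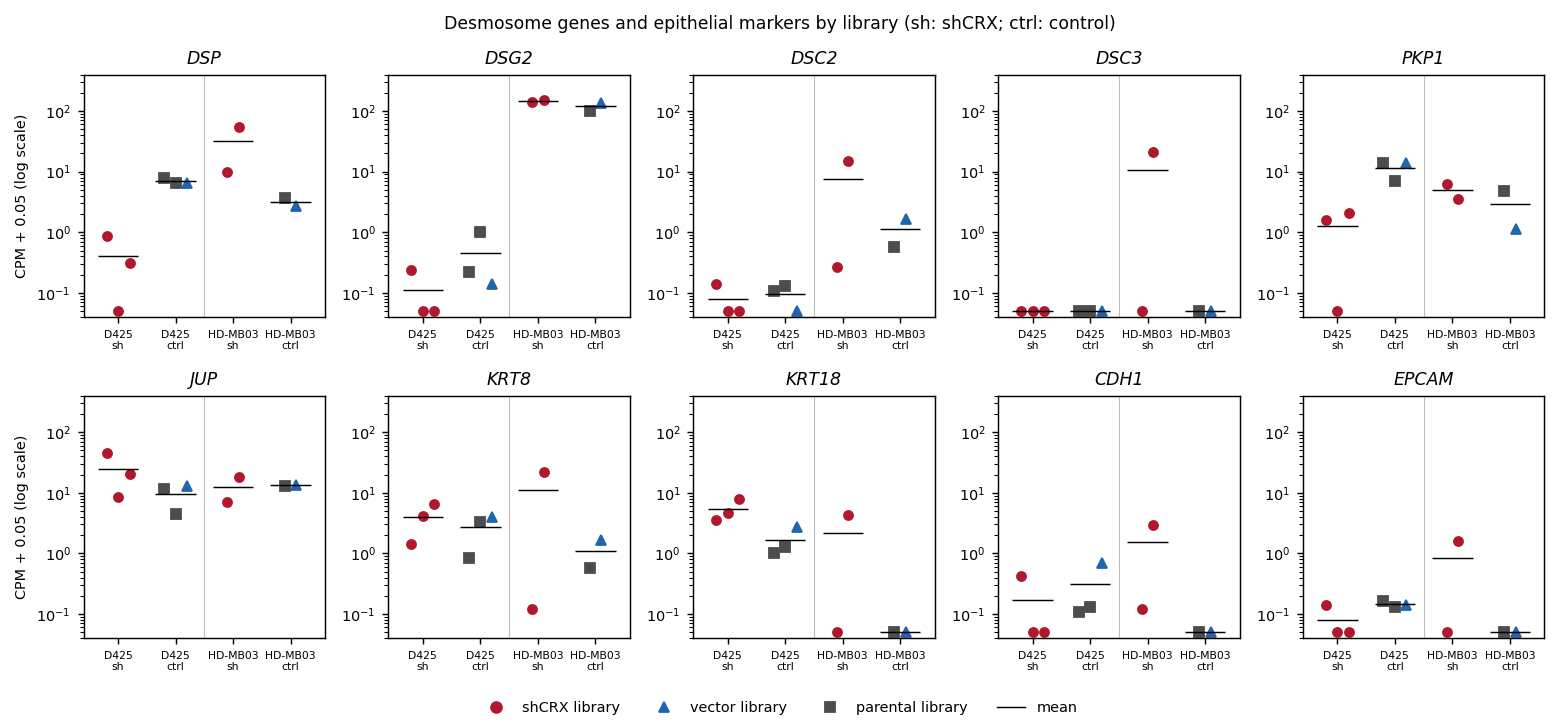
CPM plus 0.05 on a log axis for DSP, 5 further desmosome genes and 4 epithelial markers in each library, with shCRX libraries as red circles, vector libraries as blue triangles, parental libraries as grey squares and a bar at each group's mean. Replicate 2 of the HD-MB03 libraries labelled shCRX stands alone for DSC2 at 14.8, DSC3 at 21.1 and KRT8 at 22.1 CPM, where DSP is at 54.2 CPM, and PKP1 is lower in D425 shCRX libraries.

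The nearest tested protein-coding gene on each side of each of the 9 was taken from the order of genes in the annotation, which gave 18 neighbours; distances differ widely, some neighbours lie far away, and no positions are given because the annotation is of another build than the counts. In D425, 2 of 18 passed as lower and 0 as higher, while 1.37% of all tested genes passed as lower. The median log2 fold change was -0.42, against 0.02 over all tested genes, and 16 of 18 values were negative, against 47.9% of all tested genes. SLC19A3, a thiamine transporter and the nearest tested gene on one side of PID1, though far from it, had a mean of 0.232 ± 0.259 CPM in D425 shCRX cells and 2.44 ± 1.27 CPM in D425 controls (-3.49 ± 0.76, adjusted p = 0.0280, edgeR). Its call held in 13 of 17 alternatives (adjusted p 0.000103 to 0.346), and not without D425 parental replicate 1 or shCRX replicate 1 or 2. SNRNP48, a protein of the minor spliceosome beside DSP, had 33.6 ± 4.34 CPM in D425 shCRX cells and 71.8 ± 16.2 CPM in D425 controls (-1.10 ± 0.24, adjusted p = 0.0312, edgeR), and passed in 9 of 17 alternatives (adjusted p 4.28e-05 to 0.206), but not without D425 parental replicate 1, any 1 shCRX library or the vector library.

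Neighbours of STAP1 and PIEZO2 did not pass. CENPC and UBA6 flank STAP1 and kept 96.0% and 89.2% of their D425 control level, and NAPG and GNAL flank PIEZO2 and kept 88.7% and 103%. SULF1, beside SLCO5A1, had the highest value of the 18 with 1.11 (adjusted p = 0.347, edgeR), at 11.3 ± 3.31 CPM in D425 shCRX cells and 5.18 ± 1.15 CPM in D425 controls. PLCG2 and MPHOSPH6 flank HSD17B2 and kept 33.4% and 51.1%, with adjusted p values of 0.224 and 0.122 (edgeR). In HD-MB03, UBA6 passed as higher in the libraries labelled shCRX (0.98, adjusted p = 0.0482, edgeR), a call that held in 5 of 16 alternatives (adjusted p 0.00721 to 0.387) and was kept only without D425 shCRX replicate 1 or 2 among the single-library omissions.

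**Figure D5:**
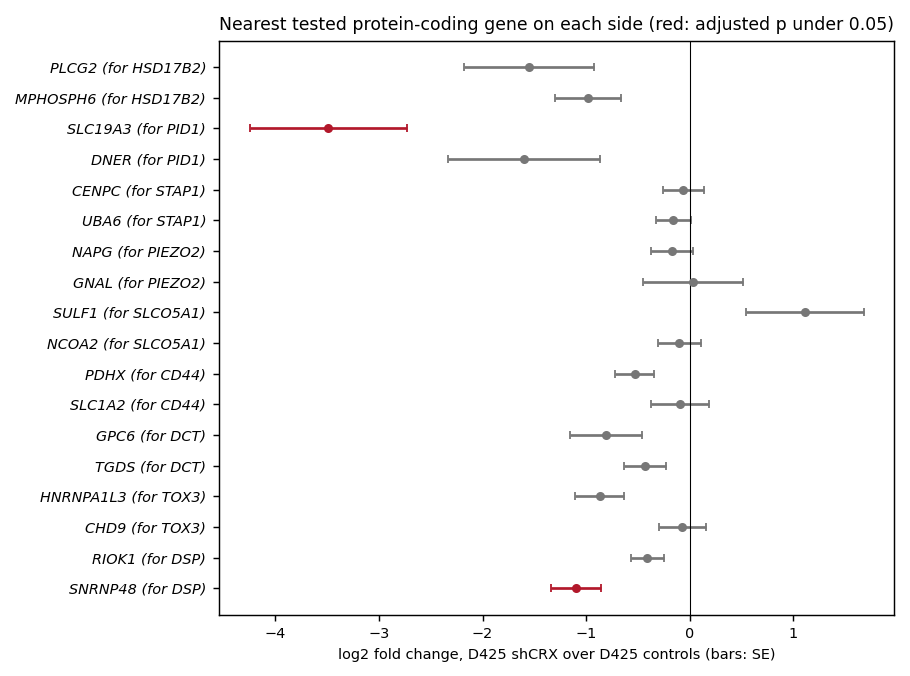
Log2 fold change of D425 shCRX over D425 controls for the 18 nearest tested protein-coding neighbours of the 9 genes, with bars for the SE and red for an adjusted p under 0.05. SLC19A3 at -3.49 and SNRNP48 at -1.10 are red, 16 of the 18 points are left of 0, and both neighbours of STAP1 and PIEZO2 sit near 0.

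Over the 10 libraries, the gene whose log2 CPM was most like that of each member was read as a description, since both lines, both arms and the library numbering enter it. PDC was the most alike gene for both PID1 (Pearson r = 0.978) and PIEZO2 (0.983), IGFBP2 for SLCO5A1 (0.982) and NFIB for CD44 (0.994). INSM2 was most alike for DCT (0.989), SLC28A3 for STAP1 (0.99), CDC27 for TOX3 (0.984), PITPNB for HSD17B2 (0.966) and TNFAIP3 for DSP (0.938). This value does not show the size of a change, and some of these genes were not nearly lost. Means in D425 shCRX cells and controls were 113 and 174 CPM for CDC27 and 78.4 and 110 CPM for PITPNB. They were 3.14 and 7.13 CPM for TNFAIP3 and 11.4 and 26.0 CPM for NFIB. Among the 9, SLCO5A1 and CD44 were close to each other (0.91) and both were highest in HD-MB03. DCT and CD44 had a value of -0.70 over both lines, with DCT highest in D425 and CD44 in HD-MB03. Within D425 both were lower in the shCRX libraries. HSD17B2, PID1, STAP1, PIEZO2, TOX3 and DCT, each highest in D425 controls, had values of 0.74 to 0.94 with each other.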

How the data were processed

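RNA was poly(A)-selected and sequenced from 10 libraries. The deposited values are raw read counts per gene made by the authors, 1 file per library; the submitters' processing notes name HISAT2, HTSeq, bcl2fastq and DESeq2 and the build GRCh37 (hg19), and versions and strand setting are not given in the sources used here. Per the labels' protocols, libraries came from a TruSeq kit. The 5 summary entries of each file were left out; 50.5% to 79.3% of reads were in genes. Reads of overlapping, antisense or near-identical genes cannot be told apart.

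The counts were fitted with edgeR 4.0.16 in R 4.3.3 (TMM, filterByExpr over 4 line-by-arm groups, robust quasi-likelihood fit, 6 residual degrees of freedom, 16006 genes, Benjamini-Hochberg adjustment over all of them, threshold 0.05, two-sided). A fit of 6 groups with 4 residual degrees of freedom compared vector with parental libraries. The SE is the log2 fold change divided by the root of F. Intervals are 95% and the floor is 3 counts. Intervals of log2 fold changes come from the fit and include the variation between libraries. Counting intervals of pooled ratios and the floor cover counting error only. Depth ran between 1.96 and 18.06 M counted reads. Symbols came from matching identifiers to GENCODE. Its build differs from that of the files, so it gave gene types, lengths and the order of neighbours only. Length is the union of all annotated exons of a gene. Promoter windows came from RefSeq (GRCh38.p14).

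Named genes were the 9, CRX, the nearest tested neighbours, the most correlated gene (log2 CPM, prior count 2), the 5 others with the lowest share left and up to 3 called genes per list; other list genes, such as MITF and PIEZO1, were named after their values were seen. The 9 genes and the lists were chosen with earlier results of these data known. Same-numbered parental and shCRX libraries of D425 share only that number (correlation of their differences 0.0137), so no block was used. Alternatives were other scalings, no filter, DESeq2 1.42.0, single control kinds, a replicate block and leaving out each library.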

Additional observations from a re-analysis of the deposited data

Results flagged for a closer look

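For 4 of the 9 genes and for CRX, every library labelled shCRX lay below every control in D425 and above every control in HD-MB03, as for 674 of all tested genes, 4.21%. Of the 1835 tested genes fully below in D425, as all 9 were by choice, that is 36.7%. The D425 direction chose the 4 genes, and the difference between the lines was not tested. In the HD-MB03 libraries labelled shCRX the mean was 2.04 CPM for HSD17B2, 7.30 CPM for DCT, 1.29 CPM for TOX3, 32.0 CPM for DSP and 25.6 CPM for CRX. In the HD-MB03 controls it was 0.268 CPM for HSD17B2, 4.74 CPM for DCT, 0 for TOX3, 3.16 CPM for DSP and 12.4 CPM for CRX. None of the 5 passed edgeR's quasi-likelihood test in HD-MB03. No group held more than 3 libraries, so no search for outlying libraries was made.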

How the results depend on the processing

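In D425, 476 genes passed, and 986 with DESeq2, 1211 without the filter, 129 with parental libraries alone as control and 21 with the vector library alone; leaving out 1 library at a time gave 185 to 430, with the lowest 185 without the vector library, 217 without parental replicate 1 and 243 without shCRX replicate 3. The replicate block gave 122; the libraries share only a number. Without scaling factors 518 passed, 367 higher and 151 lower, against 257 higher and 219 lower. In HD-MB03, 241 passed, and 806 with DESeq2, 790 without the filter, 118 with the parental and 30 with the vector library alone; leaving out 1 library gave 15 to 329, with 15 and 82 without replicates 2 and 1 of the libraries labelled shCRX, 31 without the parental library and 146 without D425 shCRX replicate 3. Between D425 vector and parental libraries, 19 passed without the filter against 0. The causes were not tested.

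The log2 fold changes of the 9 genes in D425 were negative in all 153 refits and moved beyond the spread between replicates in 9, among them to -5.77 for DSP, -5.69 for PIEZO2 and -4.24 for TOX3 without shCRX replicate 1, and -6.41 for PID1 with the vector library alone as control; without the vector library PID1 was at -4.80. In HD-MB03 no sign changed in 96 refits and the call changed in 3, all of DSP. Between D425 vector and parental libraries HSD17B2 turned to 0.03 and STAP1 to 0.15 without parental replicate 1, and were -0.46 and -0.30 without replicate 2. Scaling by library totals moved the D425 median of all genes to 0.15. Fitted values of genes with 0 reads in a group depend on the prior count. The shallow HD-MB03 controls limit what can be said of PID1, STAP1, PIEZO2, TOX3 and HSD17B2 there.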
